A study of Mus musculus with 38 samples.

Results

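The genes described here are 9 genes that place, copy, remove or protect DNA methylation: Dnmt1, Dnmt3a, Dnmt3b, Dnmt3l, Uhrf1, Tet3, Dppa3, Zfp57 and Trim28. They were taken by symbol from a table of 23125 mouse genes. The samples were oocytes and embryos of ICR mice at least 6 weeks old, with WT as the treatment label of all but the M-phase embryos. Oocytes were at GV (germinal vesicle, arrested in prophase) or MII (metaphase of the second meiotic division). Embryos were zygotes or at the two-cell stage, each in interphase or, as the groups zygote M and two-cell M, in M-phase. GV oocytes came from females stimulated with PMSG and were held with IBMX, which keeps them in prophase, and MII oocytes were obtained after 12 h of culture. Zygotes came from stimulated and mated females, and older embryos were cultured from them. The zygote M and two-cell M embryos were treated with 10 µM nocodazole, a drug that blocks the spindle, and no such treatment is given for the interphase embryos, so M-phase and nocodazole cannot be told apart. The M-phase embryos carry a label that speaks of meiosis, although both divisions are mitoses. The methods describe treatment with cycloheximide before lysis, stated there for oocytes. Each lysate was run on a sucrose gradient collected as 10 fractions. The 5 heavier were pooled as polysomes, the mRNAs carrying several ribosomes, and the 5 lighter as the non-polysome fraction, giving 12 groups of 3 libraries.

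DNA methylation marks cytosines, mostly in CpG pairs, and in the mouse egg it carries the maternal imprints that decide which parental copy of a gene is used. DNMT3A with its cofactor DNMT3L sets the mark while the oocyte grows, and DNMT1, brought to newly copied DNA by UHRF1, keeps it when DNA is replicated. After fertilisation TET3 oxidises methylcytosine, mainly in the paternal pronucleus, while the oocyte protein DPPA3 (STELLA) shields the maternal genome and ZFP57 with TRIM28 holds methylation at the imprinted regions. Transcription is silent from the full-grown oocyte until the embryo activates its own genome. In this window new synthesis of such proteins therefore depends on the translation of stored mRNA.

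Short motifs near the 3′ end of stored mRNAs are known to take part in bringing them onto polysomes, and the ends of 5 of the mRNAs are printed for this reason. A cytoplasmic polyadenylation element (CPE) was searched as TTTTAT or TTTTAAT and the poly(A) signal as AATAAA or ATTAAA, on the transcript strand only, in the last 100 bases of the main transcript of each gene (GENCODE M21, build GRCm38). The 2 motifs can overlap, as they do in Tet3. Over 19833 genes, 17.8% held a CPE in this window, 78.4% a poly(A) signal and 14.3% both. Dnmt1, Dnmt3a and Tet3 held a CPE and a signal, Uhrf1, Dnmt3b, Dppa3, Zfp57 and Trim28 a signal alone, and Dnmt3l neither set of letters. The 30 bases are read 5′ to 3′ and the capitals mark the motifs that lie whole within them, while the poly(A) signals of Dnmt1 and Dnmt3a run past the last base printed.
Dnmt1: TTTTATatgttgtaatatttcttcaaaata
Dnmt3a: TTTTATtttcgctataaatagagcttcaat
Tet3: taaaatattgtgggtgTTTTAATAAAtttt
Dppa3: tctaatttccagaaatttgtAATAAAagca
Zfp57: cccttacccccaccccacaaAATAAAtaca

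All of these stretches lie in 3′ UTRs. The Dnmt1 stretch is chr9:20907227-20907256 on the minus strand, and its CPE ends 20 bases before the poly(A) signal. The Dnmt3a stretch is chr12:3914389-3914418 on the plus strand, with 21 bases between the motifs. The Tet3 stretch is chr6:83362395-83362424 on the minus strand and shows 1 of its 2 CPEs, in which the last letters of TTTTAAT are the first of AATAAA. The Dppa3 stretch is chr6:122630234-122630263 and the Zfp57 stretch chr17:37010567-37010596, both on the plus strand. A match is a run of letters and not a measured site.

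The genes themselves lie at chr9:20907209-20959888 (Dnmt1, minus strand), chr17:56303321-56323486 (Uhrf1), chr12:3806007-3914443 (Dnmt3a), chr2:153649450-153687730 (Dnmt3b), chr10:78041947-78063622 (Dnmt3l), chr6:83362373-83459084 (Tet3, minus strand), chr6:122626410-122630272 (Dppa3), chr17:37001163-37010635 (Zfp57) and chr7:12999114-13031035 (Trim28). The table gives 1 value per gene, so the oocyte form of Dnmt1 and the short form of Dnmt3a were not separated from the other transcripts. Exons of Dnmt3a share 133 bases with the antisense gene Dnmt3aos, which stood at 0.01 to 1.45 FPKM, and exons of Dnmt3l share 67 bases with Aire on the other strand, at 0.01 to 7.07 FPKM.

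Levels are FPKM, mapped fragments per length of transcript and per total of the library, as the authors deposited them, with a floor of 0.01, so a value is a share of that library and not an amount of mRNA per embryo. The depth estimated from the step that 1 read makes was 8490000 to 26700000 reads per library, lowest in two-cell M, where it was 8490000 to 17100000 reads in the non-polysome fraction and 11100000 to 19400000 reads in polysomes. Between 5140 and 10525 genes passed 0.1 FPKM, fewest in the non-polysome fraction of two-cell M. All 8 of the oocyte markers listed for this study had means over 0.1 FPKM in the oocyte groups, and their summed level went from 1600 to 1730 FPKM in polysomes of GV oocytes to 31.1 to 147 FPKM in polysomes of two-cell M and 3.55 to 76.6 FPKM in its non-polysome fraction. The 5 two-cell genome activation markers in the table summed to 58.9 to 93 FPKM in polysomes and 248 to 421 FPKM outside them at the two-cell stage, and to 8.52 to 66.7 and 24.7 to 248 FPKM in two-cell M. From GV to zygote M they summed to 12.8 to 55.1 FPKM in polysomes and 9.76 to 32 FPKM outside them. The two-cell M sums therefore overlapped those of earlier stages in both fractions. Of these markers Tcstv3 was over 0.1 FPKM in all 36 libraries.

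Markers of other cells were low, with exceptions in some groups. The 8 cumulus and granulosa cell genes in the table summed to at most 23.6 FPKM, nearly all of it Inha, in a non-polysome library of MII, and to at most 20.7 FPKM in a non-polysome library of two-cell embryos. The 3 sperm genes reached 6.32 FPKM. The 4 red blood cell genes summed to 34.3 to 83.7 FPKM in two-cell polysomes, 99.7 to 162 FPKM in the two-cell non-polysome fraction, 24.4 to 42.5 FPKM in two-cell M polysomes and 0.04 to 52.6 FPKM in the two-cell M non-polysome fraction, against at most 1.33 FPKM at the other stages. Almost all of this was Hba-a1, an alpha globin gene, at up to 160 FPKM, while the beta globin genes Hbb-bs and Hbb-bt were at the floor in 33 and 35 of the 36 libraries. The part of these markers in the results at the two-cell stages was not tested. In pooled embryos, fewer cells of a type and less RNA per cell cannot be told apart.

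Of the 9 genes, 8 passed the minimum for the tests, which was 0.1 FPKM in the geometric mean of all 36 libraries, and Dnmt3b did not. Over all libraries Dppa3 had the highest geometric mean, 153 FPKM, ahead of Zfp57 with 14.4, Uhrf1 with 8.68, Dnmt3l with 3.68 and Tet3 with 2.59. Trim28, Dnmt1, Dnmt3a and Dnmt3b followed with 1.16, 0.967, 0.379 and 0.0441 FPKM. The order differed by group, and in zygote polysomes Zfp57, at 177 to 203 FPKM, lay above Dppa3, at 131 to 168. Differences were tested with limma (two-sided) on log2 FPKM of the 7967 genes that passed the minimum, and p was adjusted over them by Benjamini-Hochberg. A difference is described as called where it was over 2-fold with an adjusted p under 0.05. Changes are log2 values of the second stage minus the first, also where a signed value stands in parentheses with its SE and adjusted p, and ± is the SD of 3 libraries. Library values follow the replicate letters, A, B and C, or B, C and D for the zygote. The replicates are described as biological, but the labels do not tie them to separate animals or collections, so p measures the spread between these libraries, which may be technical. The comparisons share groups, and their values are therefore not independent of each other.

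Over the 6 stages, 7 of the 8 genes had a stage effect in polysomes, where 62.9% of all genes tested did, and 7 of the 8 had one in the non-polysome fraction, where 78.3% did. Dnmt3a was the exception in both, with an adjusted p of 0.217 in polysomes and 0.0551 outside them (limma moderated F-test). In polysomes the smallest adjusted p belonged to Zfp57 (6.95e-08) and Dppa3 (1.69e-05), and the largest among those with an effect to Dnmt1 (0.0299).

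**Figure D1:**
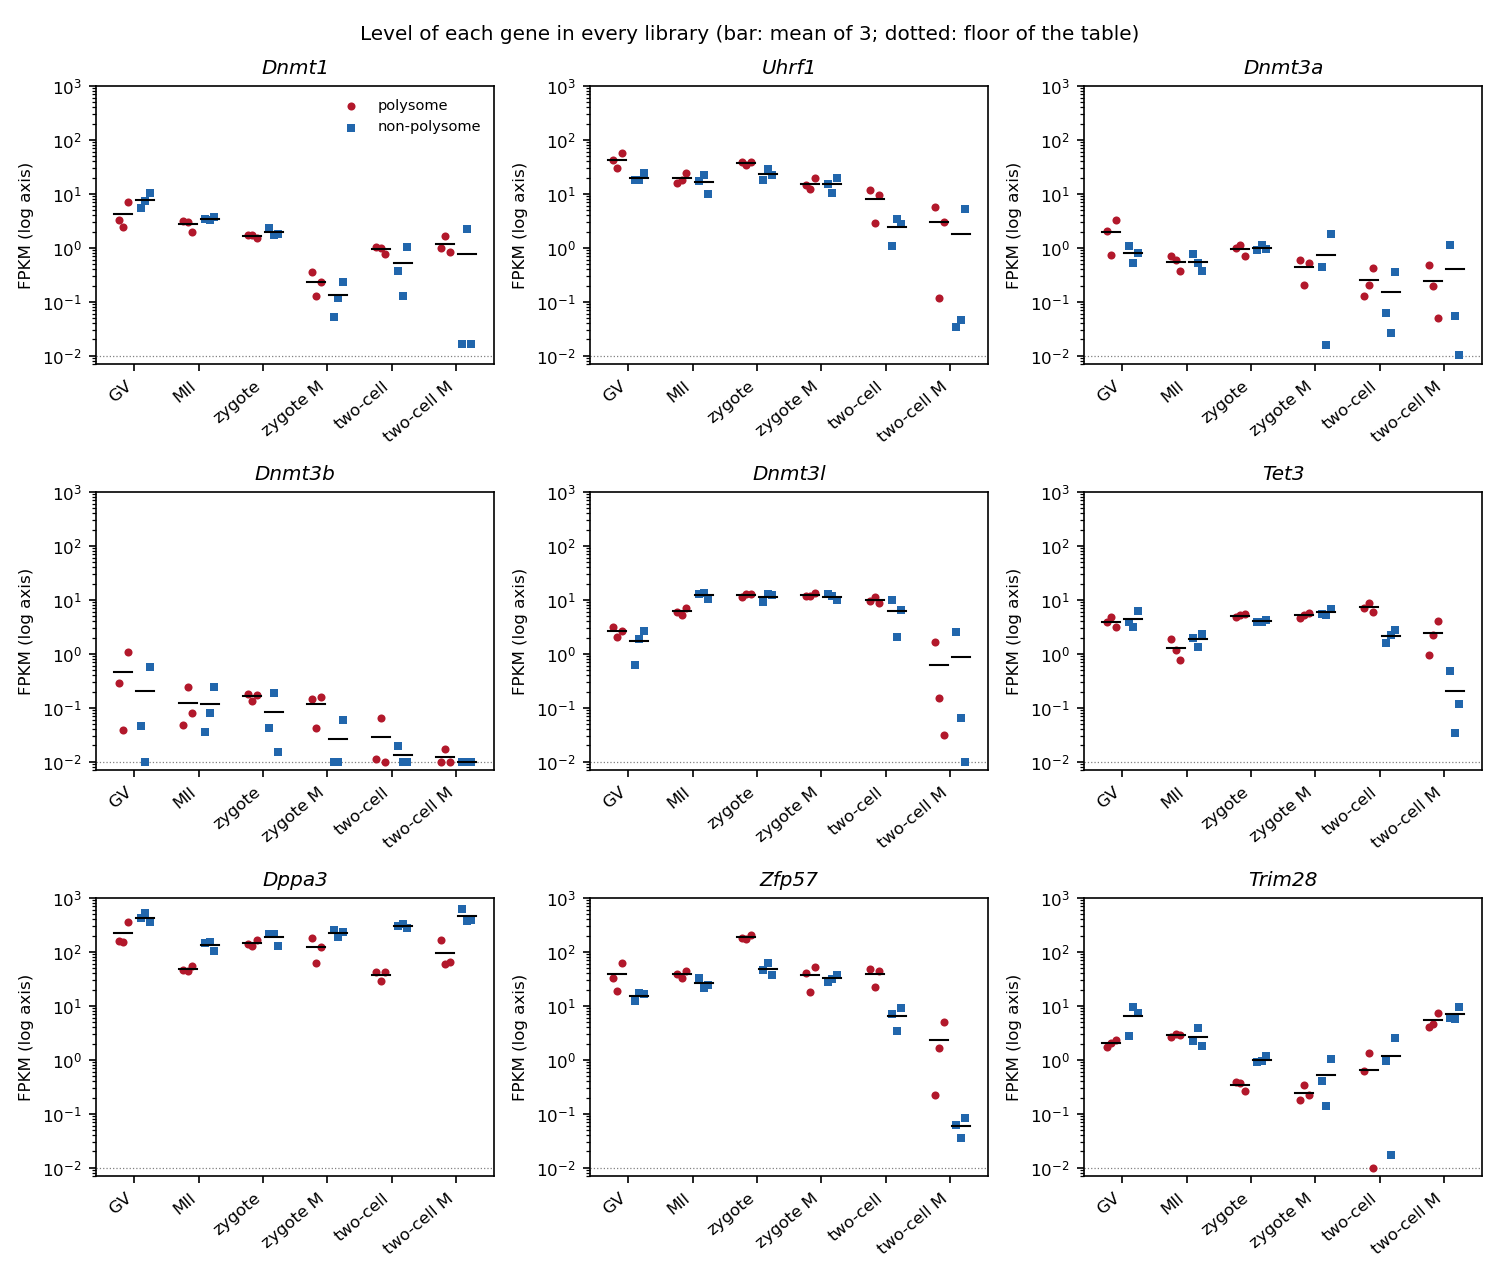
FPKM of each of the 9 genes (log axis) in every library at the 6 stages, with polysome and non-polysome libraries in separate colours, the bar at the mean of 3 libraries and the dotted line at the floor of 0.01. Zfp57 in polysomes peaks in the zygote at 177 to 203 FPKM, Trim28 is highest in two-cell M, and Dnmt3b is at or near the floor in the two-cell groups.

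Dnmt1, the maintenance methyltransferase, had its highest polysome levels in oocytes and its lowest in zygote M. In polysomes it stood at 3.22, 2.43 and 6.97 FPKM in the 3 GV libraries, 3.17, 3 and 2 in MII, 1.74, 1.71 and 1.52 in the zygote, 0.35, 0.129 and 0.232 in zygote M, 1.03, 1.01 and 0.763 at the two-cell stage, and 1, 1.64 and 0.841 in two-cell M. The order of the means was therefore GV, MII, zygote, two-cell M, two-cell and zygote M, in which GV overlapped MII, and two-cell M overlapped both zygote and two-cell, but MII did not overlap zygote nor two-cell zygote M. The zygote M libraries were all below every library of the other stages. From MII to zygote M, the metaphases of the egg and of the first division, Dnmt1 fell in polysomes, from 2.73 ± 0.631 to 0.237 ± 0.111 FPKM (SD, n = 3 each), a log2 change of -3.61 (SE 1.12, adjusted p = 0.0315). This call was lost when any of the 3 MII libraries or zygote M B or C was left out, with log2 changes of -3.82 to -3.23 and adjusted p of 0.0618 to 0.132, and after centring on library medians (-2.99, 0.0573).

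In the non-polysome fraction Dnmt1 was at 5.56, 7.49 and 10.5 FPKM in GV, 3.39, 3.25 and 3.73 in MII, 2.3, 1.72 and 1.8 in the zygote, 0.0518, 0.119 and 0.228 in zygote M, 0.368, 0.129 and 1.05 at the two-cell stage, and 0.0162, 2.28 and 0.0166 in two-cell M. The 3 zygote M libraries lay below all those of the zygote, a fall by 4.1 on the log2 scale (SE 1.12, adjusted p = 0.0172), which was lost without zygote B (adjusted p = 0.0604), zygote D (0.0528) or zygote M A (0.0829). The same step in polysomes was -2.92 (SE 1.12, adjusted p = 0.147), without overlap of the groups. In two-cell M the non-polysome libraries disagreed, with an estimated 0.408, 103 and 0.611 reads.

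Uhrf1, which brings DNMT1 to hemimethylated DNA, had its highest polysome levels in GV and the zygote. Its polysome values were 42.8, 30.1 and 56.2 FPKM in GV, 15.7, 18.2 and 24.6 in MII, 38.6, 34.4 and 39.2 in the zygote, 14.5, 12.3 and 19.6 in zygote M, 12, 2.91 and 9.53 at the two-cell stage, and 5.83, 0.12 and 3.07 in two-cell M. GV overlapped the zygote, MII overlapped zygote M, and two-cell overlapped two-cell M, so that both interphase groups up to the zygote stood above both metaphase groups. The differences from GV to MII (-1.12, SE 1.22, adjusted p = 0.716) and from zygote to zygote M (-1.3, SE 1.22, adjusted p = 0.753) did not pass the test. From MII to two-cell M it fell from 19.5 ± 4.58 to 3.01 ± 2.86 FPKM, a log2 change of -3.89 (SE 1.22, adjusted p = 0.00892). Without two-cell M library B the change was -2.18 (adjusted p = 0.125), and it was not called after centring on library medians (-1.69, 0.325) or with only the libraries compared (0.0743).

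Outside polysomes Uhrf1 held between 10.1 and 28.5 FPKM in all 12 libraries from GV to zygote M. It then stood at 1.08, 3.38 and 2.74 FPKM at the two-cell stage and 0.0344, 0.045 and 5.31 in two-cell M. The fall from the zygote, where it was 18, 28.5 and 22.5 FPKM, to two-cell was called (-3.39, SE 1.22, adjusted p = 0.0319), and the call was lost without two-cell A (-2.89, adjusted p = 0.111), without any of the 3 zygote libraries (0.0563 to 0.0882), with no minimum on the level (0.0545) and after centring on library medians (-2.26, 0.217). Uhrf1 was also called lower from two-cell to two-cell M (-3.42, SE 1.22, adjusted p = 0.0288), although the groups overlapped, and the estimated reads were 1.07, 1.07 and 326. Centring each library on its median turned the value to 0.24, and the call was also lost with 0.1 added (-2.26, adjusted p = 0.0725), 1 added (-0.77, 0.329), quantile normalization (-0.55, 0.681), no minimum (0.0653) or only the libraries compared (0.409). It was lost as well without two-cell B (-3.09, adjusted p = 0.0837), two-cell C (-3.24, 0.0747), two-cell M A (-2.14, 0.204) or two-cell M B (-2.33, 0.169).

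Dnmt3a, the de novo enzyme, was low throughout. In polysomes it was at 2.02, 0.724 and 3.22 FPKM in GV, 0.713, 0.585 and 0.369 in MII, 0.989, 1.11 and 0.721 in the zygote, 0.591, 0.206 and 0.527 in zygote M, 0.129, 0.207 and 0.425 at the two-cell stage, and 0.488, 0.198 and 0.0507 in two-cell M. The means ran from 1.99 ± 1.25 FPKM in GV to 0.246 ± 0.223 in two-cell M, and only zygote and MII did not overlap among neighbours in that order. Dnmt3a was called in none of the polysome comparisons. Its largest change there was from GV to two-cell, the 1 comparison with an unadjusted p under 0.05, at -2.9 on the log2 scale with a 95% interval of -5.67 to -0.12 and an adjusted p of 0.146.

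In the non-polysome fraction Dnmt3a was at 1.07, 0.529 and 0.815 FPKM in GV, 0.775, 0.519 and 0.374 in MII, 0.896, 1.14 and 0.943 in the zygote, 0.441, 0.016 and 1.79 in zygote M, 0.0626, 0.0267 and 0.359 at the two-cell stage, and 1.15, 0.0534 and 0.0105 in two-cell M. It was called lower from zygote to two-cell (-3.55, SE 1.36, adjusted p = 0.0431), with no overlap between the groups. The call was lost when any library but two-cell C was left out, with log2 changes of -3.62 to -2.72 and adjusted p of 0.0808 to 0.181, and under 6 other settings, among them quantile normalization, which gave -0.61.

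Dnmt3b, the other de novo enzyme, was close to absent from these libraries. Its highest value was 1.07 FPKM, in 1 GV polysome library, where the other 2 were at 0.29 and 0.0383 FPKM. In polysomes the means were 0.123 FPKM in MII, 0.165 in the zygote and 0.117 in zygote M, and all 6 two-cell and two-cell M libraries were at 0.01 to 0.0659 FPKM. Outside polysomes the highest value was 0.559 FPKM in GV, and all 3 two-cell M libraries were at the floor.

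Dnmt3l, the catalytically inactive partner of the de novo enzymes, had its highest polysome levels in the zygote and zygote M and its lowest in two-cell M. In polysomes it was at 3.15, 2.05 and 2.63 FPKM in GV, 5.93, 5.16 and 7.2 in MII, 11.5, 12.9 and 13.1 in the zygote, 11.9, 11.8 and 13.4 in zygote M, 9.38, 11.3 and 8.79 at the two-cell stage, and 1.64, 0.154 and 0.0308 in two-cell M. In the order of the means, from 12.5 ± 0.913 FPKM in the zygote down to 0.61 ± 0.898 in two-cell M, zygote and zygote M overlapped and no other neighbours did. The differences up to the zygote did not pass the test, with log2 values of 1.23 from GV to MII (SE 1.21, adjusted p = 0.677), 1.05 from MII to zygote (adjusted p = 0.969) and 2.28 from GV to zygote (adjusted p = 0.355).

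The loss of Dnmt3l from polysomes in two-cell M was called. From two-cell it fell by 5.62 on the log2 scale (SE 1.21, adjusted p = 0.000674), against an estimated 53.3, 3.48 and 0.387 reads in the 3 two-cell M libraries. From MII the log2 change was -4.93 (SE 1.21, adjusted p = 0.00135). The first was called under every alternative setting and with any library left out, but its size depended on the two-cell M libraries, with -7.15 without replicate A, -4.28 without replicate C and -2.88 with 1 added. The second was -6.46 and -3.59 without the same libraries, and was not called after centring on library medians (-2.73, adjusted p = 0.086). In the non-polysome fraction Dnmt3l was at 0.615, 1.87 and 2.61 FPKM in GV, 12.8, 13.6 and 10.3 in MII, 9.17, 12.6 and 12.1 in the zygote, 12.8, 11.7 and 10.1 in zygote M, 9.98, 2.05 and 6.45 at the two-cell stage, and 2.58, 0.0643 and 0.01 in two-cell M. The fall from two-cell to two-cell M was called there too (-5.43, SE 1.21, adjusted p = 0.00084), with an overlap between the groups and an estimated 52.5, 0.773 and 0 reads in two-cell M. It was -7.65 without replicate A and -3.64 without replicate C of two-cell M, and was not called after centring on library medians (-1.77, adjusted p = 0.248) or with only the libraries compared (adjusted p = 0.235).

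Tet3, the dioxygenase that oxidises methylcytosine in the zygote, was lowest in polysomes of the MII egg and highest in those of the two-cell embryo. The polysome values were 3.96, 4.82 and 3.13 FPKM in GV, 1.87, 1.19 and 0.76 in MII, 4.8, 5.15 and 5.45 in the zygote, 4.6, 5.25 and 5.8 in zygote M, 7.04, 8.79 and 6.01 at the two-cell stage, and 0.971, 2.22 and 4.1 in two-cell M. The 3 two-cell libraries lay above all others, and the MII libraries overlapped those of two-cell M alone. From MII to zygote M, Tet3 rose by 2.12 as log2 (SE 0.67, adjusted p = 0.0337), from 1.28 ± 0.562 to 5.22 ± 0.603 FPKM. From MII to zygote the log2 change was 2.1 (SE 0.67, 95% interval 0.74 to 3.47) with an adjusted p of 0.0723. The call for zygote M was lost without MII B or C or any of the 3 zygote M libraries (log2 1.8 to 2.21, adjusted p 0.0706 to 0.154).

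In two-cell M, Tet3 fell in both fractions. In polysomes it fell from 7.28 ± 1.41 to 2.43 ± 1.57 FPKM, a log2 change of -1.8 (SE 0.67, adjusted p = 0.0354). That call was lost without any of the 3 two-cell libraries or two-cell M A or B (log2 -1.93 to -1.25, adjusted p 0.0541 to 0.188), with only the libraries compared (0.108) and after centring on library medians (-0.38, 0.701). Outside polysomes Tet3 was at 3.97, 3.12 and 6.23 FPKM in GV, 2, 1.33 and 2.29 in MII, 3.97, 3.93 and 4.27 in the zygote, 5.48, 5.34 and 6.87 in zygote M, 1.56, 2.24 and 2.73 at the two-cell stage, and 0.474, 0.0344 and 0.117 in two-cell M. Every two-cell M library was below every other, and the change from two-cell was -4.1 (SE 0.67, adjusted p = 1.68e-05). It remained called with any library left out, but not after quantile normalization (-0.95, adjusted p = 0.187), after centring on library medians (-0.44, 0.616) or with only the libraries compared (0.129).

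Dppa3, the oocyte factor that guards maternal methylation, moved in both directions in polysomes. It stood at 161, 155 and 355 FPKM in GV, 45.4, 45 and 53.8 in MII, 142, 131 and 168 in the zygote, 178, 61.7 and 126 in zygote M, 42.8, 28.5 and 42.2 at the two-cell stage, and 167, 59.1 and 64.3 in two-cell M. The MII and two-cell libraries were the 6 lowest, and the other stages overlapped. Dppa3 fell from GV to MII (-2.11, SE 0.38, adjusted p = 0.000531), was higher in the zygote than in MII (1.61, SE 0.38, adjusted p = 0.00916), fell to the two-cell stage (-1.97, SE 0.38, adjusted p = 0.000569) and rose again to two-cell M (1.21, SE 0.38, adjusted p = 0.0153). It was also called from GV to two-cell (-2.47, SE 0.38, adjusted p = 3.99e-05) and from MII to zygote M (1.22, SE 0.38, adjusted p = 0.0344).

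Leaving out any 1 library did not end the 3 calls in which Dppa3 was lower. The rise from MII to zygote was lost without zygote D (1.51, adjusted p = 0.0546), and the rise from two-cell to two-cell M without two-cell B (1.02, 0.0717) or two-cell M A (0.73, 0.158). The rise from MII to zygote M was lost without any of the 3 MII libraries (1.17 to 1.3, 0.0625 to 0.104), zygote M A (0.88, 0.221) or zygote M C (1.13, 0.114), and with no minimum on the level (0.0694). Without a variance trend none of these 3 rises was called, with adjusted p of 0.0791, 0.0645 and 0.13, and with only the libraries compared the rise to two-cell M was not (0.131). Centring on library medians ended the call from zygote to two-cell (-1.35, adjusted p = 0.0853).

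Outside polysomes Dppa3 kept the fall in the egg and lacked the fall at the two-cell stage. It was at 419, 527 and 355 FPKM in GV, 149, 151 and 102 in MII, 217, 215 and 129 in the zygote, 253, 190 and 233 in zygote M, 299, 327 and 276 at the two-cell stage, and 627, 378 and 392 in two-cell M. From GV to MII it fell from 433 ± 86.9 to 134 ± 27.6 FPKM (-1.69, SE 0.38, adjusted p = 0.00277). From zygote to two-cell the groups did not overlap and two-cell was the higher, with a log2 change of 0.72 (SE 0.38, adjusted p = 0.148) that did not pass the test.

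Dppa3 has a transcribed processed pseudogene on the X chromosome, Dppa3-ps, whose near-identical sequence can take reads from it. Dppa3-ps was listed at 38.2 to 949 FPKM in all 36 libraries, and Dppa3 held 37.3% to 48.3% of their sum. In polysomes of the zygote Dppa3-ps was at 152 to 203 FPKM, and at the two-cell stage at 38.2 to 59.1 FPKM. The pair moved together, with log2 changes for Dppa3-ps of -2.23 from GV to MII and -1.76 from zygote to two-cell in polysomes. How reads were split between them cannot be read from the table. With their values added, an alternative chosen after seeing the data, every Dppa3 call in polysomes stayed, and MII to two-cell M was called in addition (1.01, adjusted p = 0.0231).

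**Figure D2:**
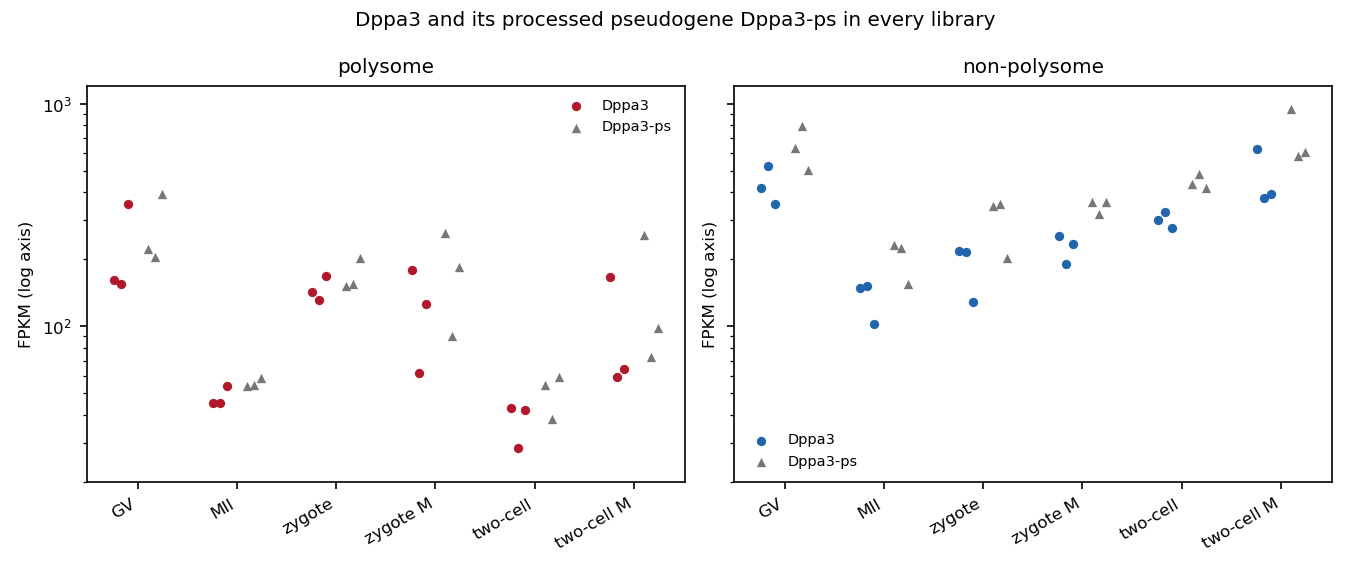
FPKM (log axis) of Dppa3 and of its processed pseudogene Dppa3-ps in each library at the 6 stages, polysomes in the left panel and the non-polysome fraction in the right. Both genes drop in MII in both fractions and drop at the two-cell stage in polysomes, where Dppa3 is at 28.5 to 42.8 FPKM, while outside polysomes it is at 276 to 327 FPKM.

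Zfp57, the zinc finger protein that binds methylated imprinted regions, showed a single high point in polysomes, the zygote. It was at 32.9, 18.7 and 63.1 FPKM in GV, 38.9, 33.2 and 44.3 in MII, 185, 177 and 203 in the zygote, 40.3, 18.1 and 53.7 in zygote M, 48.9, 22.2 and 43.7 at the two-cell stage, and 0.227, 1.64 and 5.03 in two-cell M. All 3 zygote libraries were above every other and all 3 two-cell M libraries below, while MII, two-cell, GV and zygote M had means of 38.8, 38.3, 38.2 and 37.4 FPKM and overlapped. Zfp57 was higher in the zygote than in GV (2.47, SE 0.69, adjusted p = 0.0316), and lower in zygote M (-2.47, SE 0.69, adjusted p = 0.0288) and two-cell (-2.38, SE 0.69, adjusted p = 0.0182) than in the zygote. From MII to zygote the log2 change was 2.29 (SE 0.69, adjusted p = 0.0561).

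These 3 calls around the zygote rest on few libraries. GV to zygote was lost without GV A or B or any of the 3 zygote libraries (log2 2.04 to 2.52, adjusted p 0.0937 to 0.212). Zygote to zygote M was lost without any of the 3 zygote libraries or zygote M A or B (log2 -2.59 to -2.01, adjusted p 0.065 to 0.196). Zygote to two-cell was lost without any of the 3 zygote libraries or two-cell B (log2 -2.42 to -2.02, adjusted p 0.0522 to 0.0919). The direction stayed the same in each of these fits. Centring on library medians ended the last 2 of these calls (-2.01, adjusted p = 0.0586, and -1.76, 0.0665).

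The fall of Zfp57 in two-cell M was steeper and was called in every fit. In polysomes it fell from 38.3 ± 14.2 at the two-cell stage to 2.3 ± 2.47 FPKM (-4.88, SE 0.69, adjusted p = 4.82e-06). From MII the log2 change was -4.96 (SE 0.69, adjusted p = 1.49e-06). The two-cell M polysome libraries differed, at 0.227, 1.64 and 5.03 FPKM, so the sizes of these polysome falls depend on which are used. Outside polysomes it was at 12.3, 17.4 and 16.5 FPKM in GV, 32.3, 21.8 and 24.1 in MII, 45.6, 62.9 and 37.9 in the zygote, 28.2, 31.5 and 37.7 in zygote M, 7.16, 3.41 and 9.06 at the two-cell stage, and 0.0619, 0.0349 and 0.0839 in two-cell M. The zygote was again the highest stage, and the fall from it to two-cell was called (-2.98, SE 0.69, adjusted p = 0.00168). From two-cell to two-cell M outside polysomes the fitted change was -6.74 (SE 0.69, adjusted p = 1.04e-08), but the two-cell M libraries held an estimated 0.369 to 2.21 reads of Zfp57. Against a floor of 3 reads per library, the two-cell mean was at least 44.3-fold higher.

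Trim28, the corepressor that ZFP57 recruits, had its highest mean in two-cell M in both fractions, which none of the other 7 tested genes had. In polysomes it was at 1.72, 2.02 and 2.32 FPKM in GV, 2.68, 3.03 and 2.93 in MII, 0.391, 0.371 and 0.262 in the zygote, 0.177, 0.337 and 0.219 in zygote M, 0.617, 1.33 and 0.01 at the two-cell stage, and 4.01, 4.59 and 7.52 in two-cell M. The two-cell M, MII and GV libraries formed 3 separate levels above the rest, and two-cell, zygote and zygote M overlapped. From two-cell to two-cell M it rose from 0.652 ± 0.659 to 5.37 ± 1.88 FPKM (4.68, SE 1.33, adjusted p = 0.00718). Library C of two-cell was at the floor, and without it the change was 2.51 with an adjusted p of 0.113. The lower values after fertilisation did not pass the test, with -3.1 from MII to zygote (SE 1.33, adjusted p = 0.287) and -3.61 from MII to zygote M (adjusted p = 0.077).

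Outside polysomes Trim28 was at 2.74, 9.45 and 7.38 FPKM in GV, 2.22, 3.91 and 1.82 in MII, 0.895, 0.943 and 1.2 in the zygote, 0.401, 0.137 and 1.02 in zygote M, 0.934, 0.0171 and 2.58 at the two-cell stage, and 6.02, 5.6 and 9.47 in two-cell M. The two-cell M libraries overlapped those of GV and lay above all other stages. The rise from two-cell was called (4.31, SE 1.33, adjusted p = 0.0123), and without two-cell B, with an estimated 0.305 reads, it was 2.14 with an adjusted p of 0.165. With only the 6 libraries compared, the rise was not called in polysomes (adjusted p = 0.13) or outside them (0.271).

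Read by comparison, 18 of the 72 values in polysomes were called. From GV to MII 1 of 8 genes was called, lower, where 6.11% of all genes tested were called in either direction. From MII to zygote it was 1, higher, against 4.57% of all genes. From zygote to zygote M 1 was lower, against 5.75%, and from zygote to two-cell 2 were lower, against 16.0%. From two-cell to two-cell M 5 of 8 were called, with Trim28 and Dppa3 higher and Zfp57, Dnmt3l and Tet3 lower, against 36.3% of all genes. The median log2 change of all genes in this step was -1.17 and that of the 8 genes -1.1, so relative to all genes Trim28 stood at 5.85, Dppa3 at 2.37, Tet3 at -0.63, Zfp57 at -3.71 and Dnmt3l at -4.46.

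Of the comparisons between stages that are not neighbours, 1 of 8 genes was higher from GV to zygote, against 5.61% of all genes called, and 1 was lower from GV to two-cell, against 16.7%. Between the metaphases, MII to zygote M had 3 of 8 called, Tet3 and Dppa3 higher and Dnmt1 lower, against 12.4% of all genes. From MII to two-cell M 3 of 8 were lower, Zfp57, Dnmt3l and Uhrf1, against 53.0% of all genes. All genes had a median log2 change of -2.64 there, and relative to it these 3 stood at -2.32, -2.29 and -1.25.

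**Figure D3:**
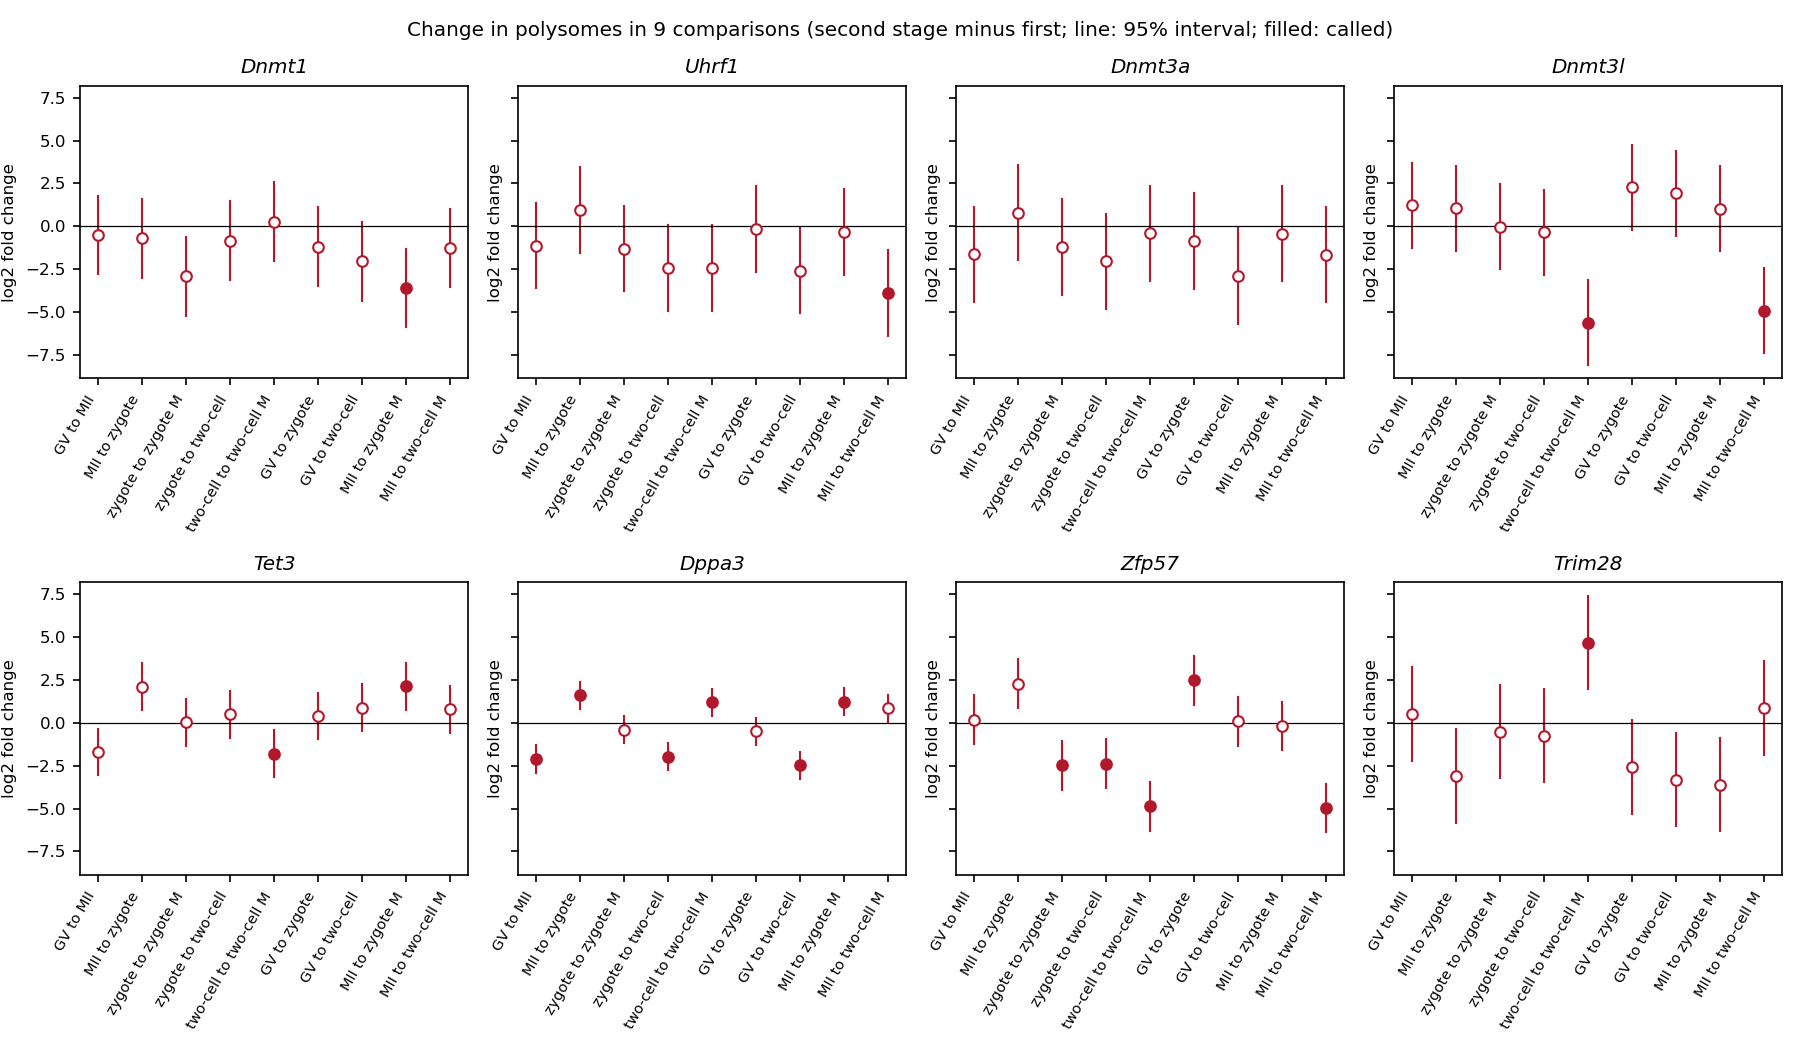
Log2 fold change in polysomes of the 8 tested genes in the 9 comparisons, second stage minus first, with 95% intervals as lines and filled points where the change was called. Dppa3 has 6 filled points with changes in both directions, Zfp57 has 5, and Dnmt3a has none.

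In the non-polysome fraction 10 of 40 values were called. From GV to MII 1 of 8 genes, Dppa3, was lower, against 16.6% of all genes called, and from MII to zygote 0 were called (limma, 0 of 8 also at an unadjusted p under 0.05), against 3.28%. From zygote to zygote M 1, Dnmt1, was lower, against 10.4%. From zygote to two-cell 3 were lower, Uhrf1, Dnmt3a and Zfp57, against 34.2%, in a step where the median of all genes was -1.61. From two-cell to two-cell M 5 were called, with Trim28 higher and Uhrf1, Dnmt3l, Tet3 and Zfp57 lower, against 36.1%, in a step where the median of all genes was -1.14.

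**Figure D4:**
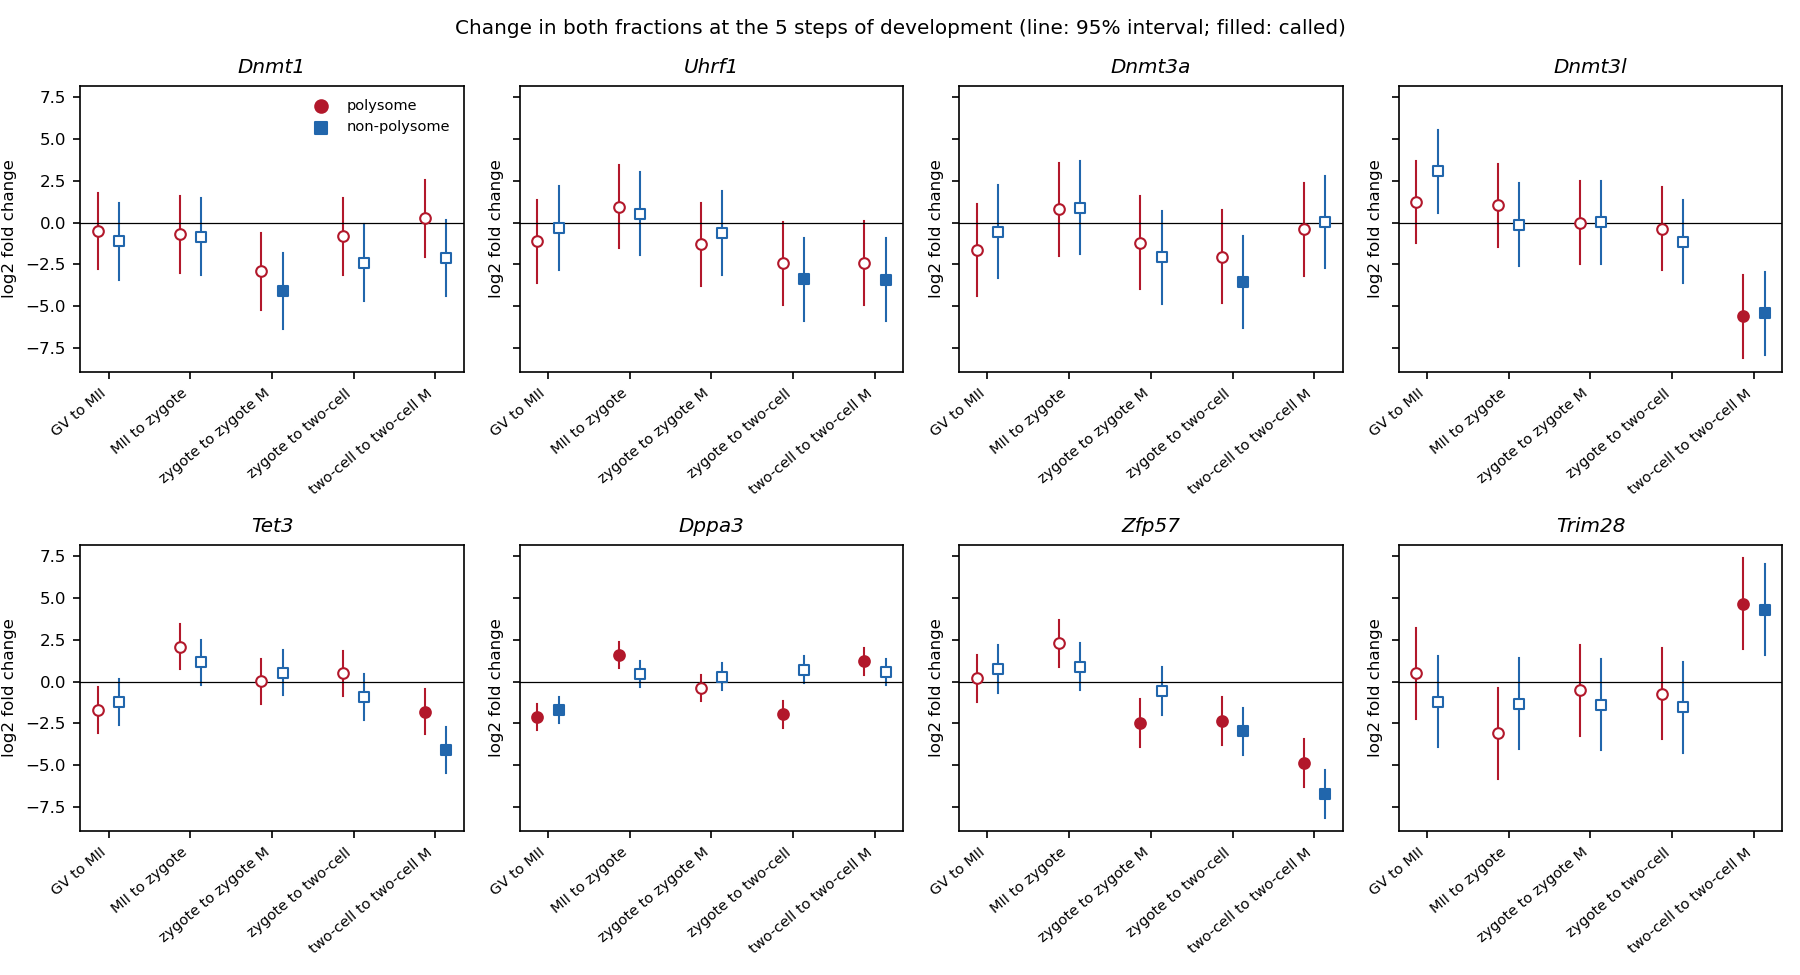
Log2 fold change of the 8 tested genes at the 5 steps of development in both fractions, with 95% intervals as lines and filled points where the change was called. Dppa3 is lower in polysomes (-1.97) and not outside them (0.72) from zygote to two-cell, and Trim28 is higher in both fractions from two-cell to two-cell M.

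Whether an mRNA was better represented in polysomes than outside them was compared at each stage. No member was called in GV, where 4.96% of all genes were, in MII (0.753%), in the zygote (1.38%) or in zygote M (1.92%), with 1 of 8 at an unadjusted p under 0.05 in each (limma). Among the 8 genes in these 4 stages, the largest log2 difference was that of Zfp57 in the zygote, 1.98 (SE 0.69, adjusted p = 0.233), where it was at 188 ± 13.5 FPKM in polysomes and 48.8 ± 12.8 outside them and the libraries did not overlap. Dppa3 stood on the other side, at -1.47 in MII (SE 0.38, adjusted p = 0.075) and -1.05 in GV (adjusted p = 0.114), and with Dppa3-ps added the value in MII was called (-1.69, adjusted p = 0.0187).

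At the two-cell stage 2 of 8 genes were called, against 16.1% of all genes. Dppa3 was lower in polysomes, 37.8 ± 8.05 against 301 ± 25.5 FPKM (-3.01, SE 0.38, adjusted p = 5.07e-06), a difference that held under every setting and with any library left out. Zfp57 was higher in polysomes, 38.3 ± 14.2 against 6.54 ± 2.88 FPKM (2.58, SE 0.69, adjusted p = 0.0112), and was not called without non-polysome library B (2.17, adjusted p = 0.0598) or polysome library A (2.36, 0.0511). Tet3 had a log2 difference of 1.76 (SE 0.67, adjusted p = 0.0689), with no overlap between the fractions.

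In two-cell M 4 of 8 genes were called, against 14.8% of all genes. Dppa3 was lower in polysomes (-2.4, SE 0.38, adjusted p = 6.13e-05), at 96.8 ± 60.9 against 466 ± 140 FPKM. Tet3 was higher there (4.06, SE 0.67, adjusted p = 8.09e-05), at 2.43 ± 1.57 against 0.208 ± 0.234 FPKM. Zfp57 was higher as well (4.45, SE 0.69, adjusted p = 4.25e-05), and with its non-polysome reads set at the floor of 3 per library its mean was at least 15.6-fold higher. This bound rests mostly on polysome library C, at 5.03 FPKM, against 0.227 in A, 1.64 in B and a floor mean of 0.148 FPKM. Dnmt1 was called higher (3.71, SE 1.12, adjusted p = 0.0236) although the fractions overlapped, and it lost the call without non-polysome A (2.51, adjusted p = 0.15) or C (2.53, 0.139) or polysome B (3.43, 0.0675), and with 0.1 added (1.93, 0.0799) or 1 added (0.51, 0.403). After quantile normalization Dppa3 (-1.08, adjusted p = 0.131), Zfp57 (1.73, 0.0656) and Dnmt1 (1.2, 0.306) were not called, and after centring on library medians Tet3 (1.56, 0.0824) and Dnmt1 (1.21, 0.377) were not. Of all genes, 7.86% were called after quantile normalization and 31.8% after centring. Centring took the median log2 difference of all genes in this comparison from 0.37 to -2.14. With only the 6 libraries compared none of these 4 was called, with adjusted p of 0.272 for Tet3, 0.31 for Zfp57, 0.125 for Dppa3 and 0.534 for Dnmt1. In that setting 0.238% of all genes were called, against 14.8% in the main fit.

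**Figure D5:**
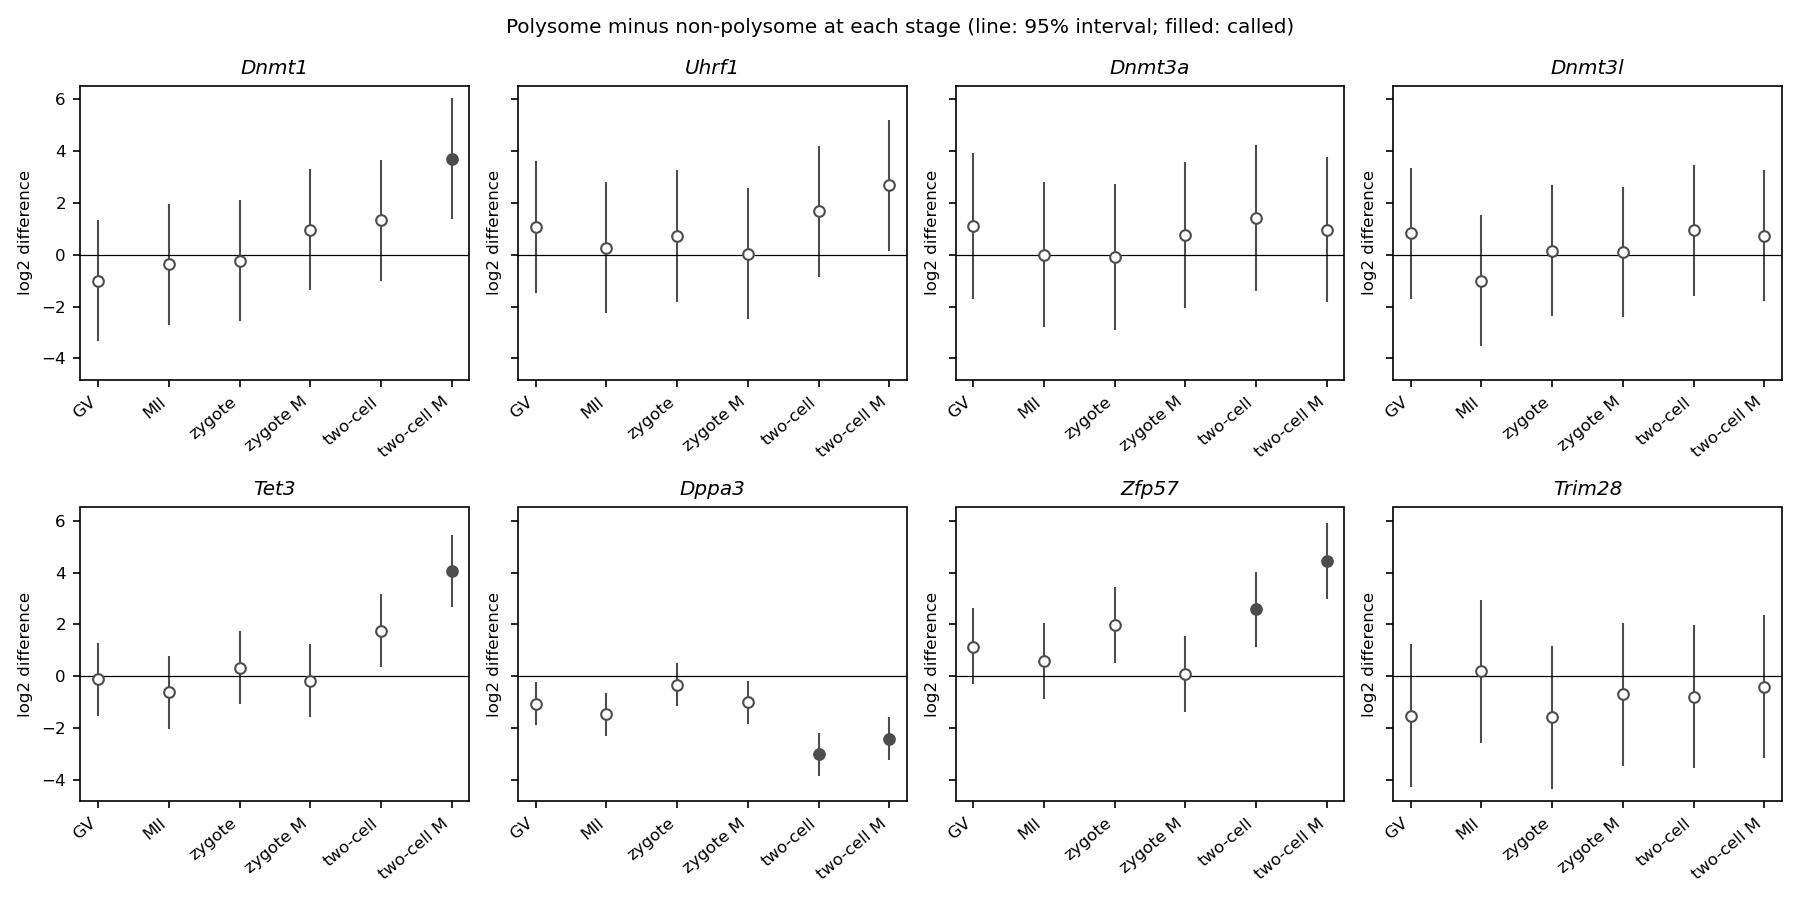
Log2 difference between polysomes and the non-polysome fraction for the 8 tested genes at the 6 stages, with 95% intervals as lines and filled points where the difference was called. Dppa3 lies below 0 at all 6 stages and is called at the two-cell stage and in two-cell M, and Zfp57 lies above 0 at all 6 and is called at the same stages.

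The change of each gene in polysomes was then set against its change outside them. From zygote to two-cell 1 of 8 genes was called for a different change, where 1.43% of all genes were. This was Dppa3, whose polysome change minus its non-polysome change was -2.69 (SE 0.54, adjusted p = 0.00846), and the call remained with any of the 12 libraries left out. It missed the threshold after quantile normalization (-2.34, adjusted p = 0.0554) and without a variance trend (adjusted p = 0.0504), and was -2.51 with Dppa3-ps added (adjusted p = 0.0118). No member was called from GV to MII (0.163% of all genes), MII to zygote (0.0377%), zygote to zygote M (0.289%) or two-cell to two-cell M (5.75%), and the members at an unadjusted p under 0.05 were 0, 1, 0 and 1 of 8 (limma). In the last of these Tet3 had the value nearest to a call, 2.3 (SE 0.94, adjusted p = 0.16).

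The genes of like pattern were found by Pearson's r over the 12 group means on the log2 scale, among 2515 or 2516 genes, as a description in which all points share the same 36 libraries. Nearest to Uhrf1 was Oas1e (r = 0.985), nearest to Zfp57 were Reep2 (0.983) and Stat6 (0.982), and nearest to Dnmt3l was Rab38 (0.985). Tet3 was nearest to Cdh24 (0.955), Dnmt3a to Uqcrc2 (0.95), Trim28 to Endog (0.934), Dnmt1 to Eef1b2 (0.922) and Dppa3 to Cox6c (0.868). Among the members, Uhrf1 and Zfp57 were the most alike (r = 0.941), followed by Dnmt3l and Zfp57 (0.888) and Uhrf1 and Dnmt3a (0.874), and Dnmt3l and Trim28 were the most opposed (-0.739).

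Lists of 47 further genes of the same pathways were examined in polysomes, of which 24 passed the minimum. From GV to MII, zygote to zygote M and GV to zygote 0 of the 24 were called (limma, with 4, 1 and 2 at an unadjusted p under 0.05). From MII to zygote 1 was lower, and from zygote to two-cell 4 were lower, which is 16.7% of the 24. From two-cell to two-cell M 3 were higher and 3 lower, from GV to two-cell 6 were lower, from MII to zygote M 1 was lower, and from MII to two-cell M 1 was higher and 9 lower, or 41.7%. These shares lie on both sides of those of all genes given above for the same comparisons.

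Of the 28 calls in these lists, 11 were kept with any library left out, and 8 of those were also kept under every other setting. These 8 were calls of Xrcc1, Smug1 and Cbx1. Among the 7 tested genes of demethylation and base excision repair, 4 were lower from MII to two-cell M, against 53.0% of all genes called, and 2 were lower from GV to two-cell, against 16.7%. Xrcc1, the scaffold of single-strand break repair, went from 13.4 ± 0.76 FPKM in MII to 0.874 ± 0.194 in the zygote (-3.96, SE 0.93, adjusted p = 0.00784), and stood at 0.01, 0.0356 and 0.01 in two-cell M, where 0.01 is the lowest value of the table. Smug1, a glycosylase that removes uracil and hydroxymethyluracil, was at 12.8, 9.37 and 8.47 FPKM in the zygote and 0.0204, 0.0201 and 2.07 at the two-cell stage (-6.73, SE 1.33, adjusted p = 0.000684). With 1 library left out its change ran from -8.95 to -5.61. In the opposite direction Parp1, a sensor of strand breaks, was at 0.0447, 0.223 and 0.0731 FPKM at the two-cell stage and 0.505, 2.25 and 0.87 in two-cell M (3.47, SE 1.36, adjusted p = 0.046), a call kept in 1 of 6 fits with a library left out (2.88 to 4.12, adjusted p up to 0.157) and lost with 1 added (0.91), no minimum (0.0847) or only the libraries compared (0.0695).

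From MII to two-cell M, 1 of 7 tested partners of Trim28 was higher and 2 were lower, and 3 of 5 genes of histone marks were lower, against the same 53.0%. Of these 3 histone mark genes, Cxxc1 kept the call in 1 of 6 fits with a library left out (-8.02 to -3.19, adjusted p up to 0.237). The others kept it in 4 of 6 and in 6 of 6. From GV to two-cell, 1 of 7, 1 of 5 and both tested genes of methyl donor supply were lower, against 16.7%. In fits with a library left out, the methyl donor gene Mat2b kept this call in 1 of 6 and Mat2a in 4 of 6. Mat2b also lost it with no minimum, without a variance trend and after centring on library medians. Mat2a lost it with only the libraries compared. Of the 7 tested partners of Trim28 and imprint zinc fingers, Cbx1, a heterochromatin protein, fell from 4.79 ± 1.9 FPKM in GV to 0.404 ± 0.134 at the two-cell stage (-3.55, SE 0.89, adjusted p = 0.00628). The histone methyltransferase Setdb1 was lower from MII to two-cell M (-4.8, SE 1.52, adjusted p = 0.0095), at 3.47, 2.56 and 1.07 against 0.184, 0.237 and 0.01 FPKM, and was not called without two-cell M C (-3.34, 0.0823), after quantile normalization (-2.27, 0.158) or after centring on library medians (-2.61, 0.155). Smarcad1, a chromatin remodeller that binds Trim28, lies under the mean of 1 FPKM set for naming and was chosen after its values were seen. It went from 0.0932 ± 0.0376 FPKM at the two-cell stage to 0.475 ± 0.328 in two-cell M (2.21, SE 0.85, adjusted p = 0.0424), a call kept in 3 of 6 fits with a library left out (1.69 to 2.52, adjusted p up to 0.178) and lost with 1 added (0.41), no minimum (0.0733) or only the libraries compared (0.143). From 0.065 ± 0.0323 FPKM in MII, Smarcad1 was called higher in two-cell M as well (2.79, SE 0.85, adjusted p = 0.00754). That call was kept in 6 of 6 fits with a library left out and lost with 1 added.

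Of the 5 genes of histone marks that guide methylation in the oocyte, the H3K4 demethylase Kdm1b was lower from zygote to two-cell (-4.26, SE 1.39, adjusted p = 0.0354), at 1.17, 1.14 and 0.789 against 0.01, 0.168 and 0.0902 FPKM, a call kept in 1 of 6 fits with a library left out (-5.08 to -3.05, adjusted p up to 0.186) and lost with 1 added (-0.9, 0.0836) or after centring on library medians (-3.64, 0.105). Kmt2b, an H3K4 methyltransferase, was at 1.21, 3.22 and 1.34 FPKM at the two-cell stage and 0.01, 0.0135 and 1.79 in two-cell M, so that the groups overlapped. It was called lower (-4.8, SE 1.41, adjusted p = 0.00881), but not without two-cell M A (-3.48, 0.0795) or B (-3.7, 0.0677), after centring on library medians (-3.39, 0.061), with only the libraries compared (0.158) or with 1 added (-0.98), and its value was -7.22 without two-cell M C. Mat2a, which makes the methyl donor S-adenosylmethionine, was at 16.4, 16.3 and 18.6 FPKM in the zygote, 2.63, 3.94 and 0.111 at the two-cell stage (-4.03, SE 1.23, adjusted p = 0.0243) and 22.9, 22.6 and 19.7 in two-cell M (4.37, SE 1.23, adjusted p = 0.00668). Without two-cell C neither change was called (-2.41, adjusted p = 0.215, and 2.75, 0.0881), nor was the first without any of the zygote libraries (0.0646 to 0.0706) or after centring on library medians (-3.41, 0.0714). With only the libraries compared neither was called (0.0603 and 0.0734). No gene was called among the 2 tested partners of maintenance methylation or the 1 tested methyl-CpG reader.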

How the data were processed

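RNA of the polysome and non-polysome pools had been made into libraries with the SMART-seq v4 kit, which does not mark strand, and sequenced in pairs. The authors trimmed reads with Trim Galore 0.4.1, mapped them with STAR 2.5.3a and deposited gene values as FPKM from Partek, for GRCm38. The methods name RefSeq genes, while the table's annotation columns are of Ensembl type. Of 38 samples, 2 zygote samples have no column and were not analysed here. Groups come from the sample titles.

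The 36 libraries were fitted as 12 group means in limma 3.58.1 (R 4.3.3), with empirical Bayes and a variance trend. The values were log2 FPKM without a further offset, for the 7967 genes whose geometric mean reached 0.1 FPKM. Depth was estimated from 7034 genes with a single transcript, where 37.4% to 52.9% of low values were whole reads within 0.05 reads, so counts were not recovered and no count test was run. Estimated reads and floors cover counting error only, and no molecular identifiers were used. The limma fit was tested on simulated data with planted changes for GV to MII in polysomes, without a floor in the values. The other steps were not tested in this way. Alternatives were 0.1 or 1 added, no minimum, a geometric mean of at least 1, quantile normalization, centring on library medians, no trend, only the libraries compared, the replicate letter or gradient as a block, and leaving out each library. The members and lists were chosen with earlier results of these data known. All 9 members are named, and from each further list at most 2 called genes per comparison, those with the largest change and a group mean of at least 1 FPKM. Tables and plots were made with Python 3.11.15, pandas 2.3.3 and matplotlib 3.10.9.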

Additional observations from a re-analysis of the deposited data

Results flagged for a closer look

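The change of Dppa3 from zygote to two-cell in polysomes differed from its change in the non-polysome fraction by -2.69 on the log2 scale (limma interaction, adjusted p = 0.00846), with all 3 two-cell libraries below the zygote in polysomes and above it outside them.

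In 7 further cases every library of an M-phase group moved one way from its interphase group and every library of another M-phase group the opposite way. The difference was not tested in any of them. How many of all genes show such a pattern was not counted, so it cannot be called particular to these genes. The M-phase embryos were treated with nocodazole, while no such treatment is given for the MII oocytes. In polysomes, Dnmt3l was higher in MII than in GV, whereas the two-cell M libraries lay below the two-cell libraries, so that the second log2 change minus the first was -6.85, resting on an estimated 53.3, 3.48 and 0.387 reads in two-cell M. Dppa3 moved the other way in the same pair, by 3.32 in polysomes and by 2.29 outside them. In the non-polysome fraction, Tet3 was lower in MII than in GV and higher in zygote M than in the zygote, a gap of 1.75, while its change from two-cell to two-cell M lay -4.63 from that of the zygote. Zfp57, higher in MII than in GV outside polysomes, was lower in zygote M, a gap of -1.32, and lower in two-cell M, a gap of -7.5, the latter against an estimated 0.369 to 2.21 reads per library. Of the changes behind these gaps, those from GV to MII of Dnmt3l in polysomes and of Tet3 and Zfp57 outside them, from zygote to zygote M of Tet3 and Zfp57, and from two-cell to two-cell M of Dppa3 outside polysomes were not called, with adjusted p of 0.232 to 0.74 (limma).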

How the results depend on the processing

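Of the 200 log2 values, 162 to 196 kept their side of the threshold under each planned setting that tested all 8 genes, and values that were not called changed sign in up to 30 cases, after quantile normalization, and 23 after centring on library medians. The 18 calls in polysomes became 31 with 1 added, 34 after quantile normalization, 32 with only the libraries compared and 14 after centring on library medians. In the same order, the share of all genes called from GV to MII went from 6.11% to 20.1%, 19.4%, 27.1% and 5.03%. From two-cell to two-cell M it went from 36.3% to 26.9%, 37.3%, 20.9% and 33.4%. The single call for a different change in the 2 fractions became 0 after quantile normalization, 0 without a variance trend and 2 with only the libraries compared. The share of all genes called for a different change from zygote to two-cell went from 1.43% to 1.15%, 1.63% and 4.58% in these settings. Uhrf1 from two-cell to two-cell M outside polysomes changed from -3.42 to 0.24 after centring on library medians, a scaling that brings the median log2 change of all genes in that step from -1.14 to 2.51. The cause was not tested. The same scaling ended the calls of Dnmt3l and Tet3 in that step outside polysomes. With a library left out, counts were 14 to 19 in polysomes, 7 to 10 outside them, 5 to 7 between fractions, 1 to 2 for different changes, and 6 to 7 and 7 to 8 for stage effects in polysomes and outside them. The shares of all genes called in these fits were not computed, so the counts cannot be set against them.

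Libraries with the same replicate letter deviated little together, with a mean correlation of 0.0205 in polysomes and 0.0176 outside them, and the 2 fractions of one gradient with 0.0756, so the letters were not taken as pairs. With the replicate letter or gradient as a block, 12 values were called in polysomes, 7 outside them, 6 between fractions and 1 for a different change, and stage effects were 6 and 7. For zygote to two-cell, the block took the share of all genes called from 16.0% to 8.95% in polysomes and from 34.2% to 23.4% outside them. For two-cell to two-cell M in polysomes this share went from 36.3% to 33.5%. Between fractions the share went from 16.1% to 16.0% at the two-cell stage and from 14.8% to 14.6% in two-cell M. The 9 values no longer called then, with adjusted p of 0.0555 to 0.145, were Zfp57 from GV to zygote, zygote to zygote M and zygote to two-cell, Tet3 from MII to zygote M and two-cell to two-cell M, and Dnmt1 from MII to zygote M in polysomes, and Dnmt1 from zygote to zygote M and Uhrf1 and Dnmt3a from zygote to two-cell outside them. Among the named genes of the further lists, the block ended the calls of Parp1 and Smarcad1 from two-cell to two-cell M. It also ended those of Kdm1b and Mat2a from zygote to two-cell and of Mat2b from GV to two-cell. Few reads limit the two-cell M non-polysome values. At least 1 library there held fewer than 3 estimated reads of Zfp57, Dnmt1, Uhrf1, Tet3, Dnmt3l and Dnmt3a. Whether this came from depth was not tested. Adding Dppa3-ps to Dppa3, chosen after seeing the data, gave 19, 10, 7 and 1 calls in the same order. The share of all genes called then was 53% from MII to two-cell M in polysomes. Between fractions in MII it was 0.766%, against 0.753% in the main fit.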
